A study of Mus musculus with 6 samples.

Results

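The 9 genes described here encode 3 actins and 6 proteins that sever actin filaments, hold actin monomers or regulate filament assembly. They are Actb, Actg1, Acta2, Cfl1, Dstn, Pfn1, Tmsb4x, Tmsb10 and Arhgdia, chosen by symbol from 12331 gene rows. All 9 were in the deposited table, and all 9 reached 1 RPKM in at least 3 of 6 libraries, as did 6327 genes in all. RPKM is the number of reads scaled to the length of the gene model in kilobases and to the total alignments of the library. Levels of different genes thus share 1 scale within a library. The scaling does not remove differences between genes in how well their RNA was copied or amplified. Ratios and orders of genes below are therefore those of RPKM.

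All libraries came from the mouse embryonic stem cell line E14tg2a, grown with LIF, a cytokine that keeps such cells undifferentiated. Each library started from 10 pg of purified total RNA, about the amount in a single cell, which was reverse transcribed from an oligo(dT) primer and amplified with 20 PCR cycles. In 3 libraries the cDNA was fragmented and tagged in 1 reaction by the hyperactive Tn5 transposase (tagmentation), and in 3 it was sheared by sound and ligated to adaptors (sonication). The series set the 2 library methods side by side, and both carried technical replicates numbered 1 to 3. Nothing in the labels says that these were separate cultures, so a p-value here reflects the spread among these 6 libraries, which may be technical. The sample descriptions also speak of single cell lysate, whereas the protocol starts from RNA purified in bulk.

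Actin monomers join into filaments, the main load-bearing and force-producing fibres under the membrane of animal cells. Cofilin and destrin sever ageing filaments and free their subunits. Profilin readies monomers for growing ends, and the beta-thymosins keep a reserve of monomers out of filaments. Cytoplasmic beta-actin and gamma-actin are made in nearly all cells, while alpha-actin Acta2 is best known from smooth muscle.

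The actin transcripts resemble each other closely, which bears on how reads are assigned to them. Coding bases 31 to 150 of Actg1 (chromosome 11), with the matching bases of Actb (chromosome 5) and Acta2 (chromosome 19), are shown to make this visible. The sequences come from GENCODE M21 transcripts, and capitals mark bases that differ from Actg1.
Actg1: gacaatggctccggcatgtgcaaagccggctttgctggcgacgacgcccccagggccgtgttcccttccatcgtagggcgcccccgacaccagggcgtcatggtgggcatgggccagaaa
Actb: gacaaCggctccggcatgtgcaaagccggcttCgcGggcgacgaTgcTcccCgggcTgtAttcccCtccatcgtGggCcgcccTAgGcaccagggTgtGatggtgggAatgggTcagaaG
Acta2: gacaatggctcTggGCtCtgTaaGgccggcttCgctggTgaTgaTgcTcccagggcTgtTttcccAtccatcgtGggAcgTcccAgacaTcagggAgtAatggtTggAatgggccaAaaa
Over this stretch Actb differed from Actg1 at 19 of 120 bases and Acta2 at 24. Over the whole coding sequence Actb and Actg1 were identical at 997 of 1125 aligned bases (88.6%), with a longest shared run of 62 bases. Acta2 was identical to Actb at 83.3% of aligned bases and to Actg1 at 82.0%.

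The severing proteins and the beta-thymosins were less alike than the actins. The first 120 coding bases of Cfl1 (chromosome 19) and Dstn (chromosome 2) are given because Dstn, and not Cfl1, stood apart between the methods. Capitals mark bases that differ from Cfl1.
Cfl1: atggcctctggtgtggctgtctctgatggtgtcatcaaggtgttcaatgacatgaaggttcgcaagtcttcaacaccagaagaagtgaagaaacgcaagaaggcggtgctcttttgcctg
Dstn: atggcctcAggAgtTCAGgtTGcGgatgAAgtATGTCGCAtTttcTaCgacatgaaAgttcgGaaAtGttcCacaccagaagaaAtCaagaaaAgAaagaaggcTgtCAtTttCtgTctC
Dstn differed from Cfl1 at 38 of these 120 bases and was identical to it at 68.7% of 495 aligned coding bases. The beta-thymosins are so short that their whole coding sequences of 132 bases, without the stop codon, can be set side by side. Capitals in Tmsb10 (chromosome 6) mark bases that differ from Tmsb4x (chromosome X).
Tmsb4x: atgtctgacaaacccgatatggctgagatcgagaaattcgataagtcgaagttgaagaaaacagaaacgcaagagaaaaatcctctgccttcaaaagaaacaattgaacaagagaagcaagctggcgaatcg
Tmsb10: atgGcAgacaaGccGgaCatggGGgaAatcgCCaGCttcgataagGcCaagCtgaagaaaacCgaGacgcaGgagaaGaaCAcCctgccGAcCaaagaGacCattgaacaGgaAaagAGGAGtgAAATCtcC
They differed at 40 of 132 bases, with no shared run longer than 10 bases.

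Much of Actg1 and Tmsb10, but almost none of Dstn, Pfn1, Tmsb4x and Arhgdia, can be found in transcripts of other genes. Every window of 36 bases in a member's GENCODE transcript was looked up, on either strand, in the transcripts of all other genes. Of these windows, 57.0% were shared in Actg1, 50.7% in Tmsb10, 28.9% in Actb and 26.5% in Cfl1. The share was 2.35% in Dstn, 1.05% in Acta2, 0.363% in Pfn1 and 0% in Tmsb4x and Arhgdia. All 1090 coding windows of Actg1 occurred elsewhere, most of them in the predicted gene Gm12715, which holds 53.0% of the Actg1 windows. Actg1 and Actb shared only 86 windows with each other, 4.56% of those of Actb. Actb shared most with Lrrc58, 18.2% of its windows. Lrrc58 had 6.69 to 12.6 RPKM after tagmentation and 5.22 to 11.6 RPKM after sonication. Of the coding windows of 36 bases, 93 of 97 were shared in Tmsb10 (95.9%), 296 of 463 in Cfl1 (63.9%) and 409 of 1090 in Actb (37.5%). With windows of 75 bases the share was 54.5% for Actg1, 32.8% for Tmsb10 and 16.5% for Cfl1, but 2.60% for Actb. The Cfl1 transcript used is 2354 bases long and holds 17.3% of its windows in common with Snx32, while the shortest gene model that returns whole reads for Cfl1 is 1184 bases, so it is not known whether the deposited Cfl1 values cover that sequence. How reads with several matches were treated is not given in the sources used here, so the values of Actg1, Tmsb10, Actb and Cfl1 are uncertain to that extent, and the part of shared reads in them was not tested.

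**Figure D1:**
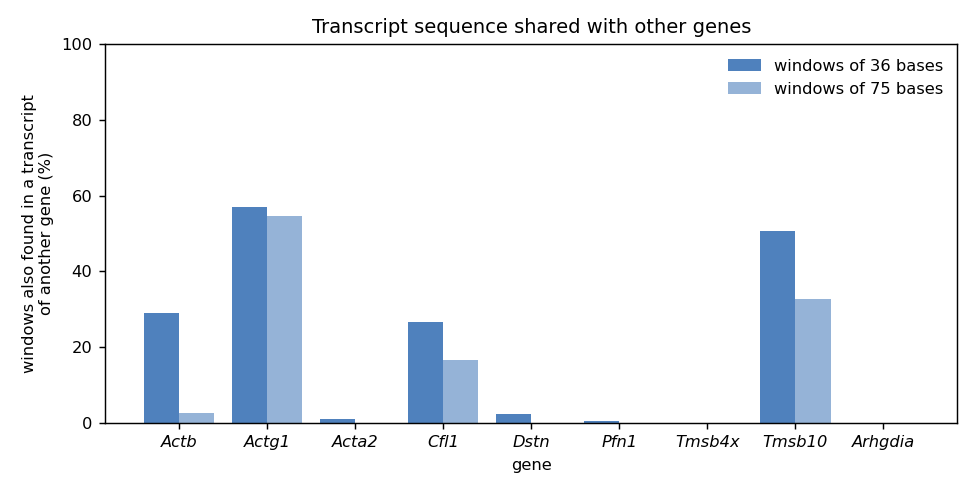
Percent of all windows of 36 bases (dark) or 75 bases (light) in the transcript of each gene that also occur in a transcript of another gene in GENCODE M21. Actg1 has 57.0% of its 36-base windows shared, while Tmsb4x and Arhgdia have 0%.

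RefSeq's table for GRCm38.p6 held promoter windows (250 bases before to 50 after a transcript start) for 8 of the 9 genes, all but Actb. The CArG box, the site of serum response factor, which drives many actin genes, was searched in these windows. Only its strict form was sought, CC and GG around a core of A and T bases as long as that printed below. The box reads the same on both strands. It was found in 1 of the 8 genes (11 windows), Actg1, and in 1.63% of all 32851 windows in the table. The Actg1 box begins 90 bases before the start. The 70 bases around it, chr11:120348546-120348615 (GRCm38.p6, minus strand), are shown 5′ to 3′ because they hold the only match, with the box in capitals.
Actg1 promoter: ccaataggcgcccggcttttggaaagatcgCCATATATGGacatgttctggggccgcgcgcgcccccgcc
The windows of the other 7 genes did not hold the strict form. This says nothing of boxes with another base in the core, which were not searched, or of more distant sites.

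The 6 libraries had 18852822 to 34681566 alignments, and the RPKM steps returned whole reads, within rounding plus 0.01 read, for 8 of the 9 genes. No length from 200 to 8000 bases gave whole reads for Tmsb10. The shortest lengths that did so, whose multiples fit as well, were 1889 bases for Actb, 1894 for Actg1, 1780 for Acta2, 1900 for Dstn, 870 for Pfn1, 670 for Tmsb4x and 2732 for Arhgdia. At these lengths the fewest reads of the 8 genes lay behind Acta2, 1564 to 4204 per library, and the most behind Actg1, 19584 to 59024 per library. Counting error of the 8 genes was thus small beside the differences between libraries, but it covers reads only, since PCR copies of 1 molecule were not told apart.

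The markers of the embryonic stem cell were present in the libraries. Pou5f1 had 111 to 260 RPKM after tagmentation and 91.5 to 251 RPKM after sonication. Sox2 had 3.79 to 61.6 RPKM after tagmentation and 9.33 to 30.7 RPKM after sonication, with number 2 lowest in both. The summed level of all 7 stem cell markers, most of it Dppa5a in every library, was 1323 to 2270 RPKM after tagmentation and 866 to 2349 RPKM after sonication. Nanog had a listed value of 0 in number 3 with each method. Libraries of the same number deviated together from their method's mean over all tested genes, with correlations of 0.952 in number 1, 0.969 in number 2 and 0.934 in number 3, so tests with the number as a block are given where they change a call.

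Of the 3 actins among the 9 genes, gamma-actin had the highest RPKM in all 6 libraries, beta-actin came next and the smooth muscle actin Acta2 was lowest. Actg1 had 712, 900.4 and 836 RPKM in tagmentation libraries 1 to 3, against 782, 749.9 and 548 RPKM in sonication libraries 1 to 3. Actb had 163, 111 and 174 RPKM after tagmentation, against 196, 94.8 and 121 RPKM after sonication. The ranges of the methods overlapped for both genes. Actb stood low in both libraries of number 2, while Actg1 stood low in sonication library 3 and tagmentation library 1. The level of Actg1 was 4.36, 8.08 and 4.81 times that of Actb in tagmentation libraries 1 to 3 and 3.98, 7.91 and 4.53 times in sonication libraries 1 to 3. The ratio was highest in number 2 with each method, and within each number it was slightly higher after tagmentation. It carries the uncertainty about reads shared with other genes given above.

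Acta2 was the lowest of the 9 genes in every library. It had 59.7, 41.3 and 56.7 RPKM after tagmentation, against 78.0, 45.0 and 46.6 RPKM after sonication. Its ranges overlapped, and number 1 was highest and number 2 lowest with each method. Actb was 2.70 to 3.07 times Acta2 after tagmentation and 2.11 to 2.60 times Acta2 after sonication. Acta2 shared 1.05% of its 36-base windows with other genes, among them 21 windows with Actg1 and 12 with Actb.

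The other smooth muscle markers did not accompany Acta2 as a set. Of 6 listed, 5 were in the table. Cnn1, a calponin of contractile smooth muscle, and Myocd, the coactivator that drives its genes, were below 1 RPKM in all 6 libraries. Tagln, an actin-binding protein of smooth muscle, had 11.2 to 20.8 RPKM after tagmentation and 13.2 to 21.3 RPKM after sonication. Smtn, smoothelin, had 1.69 to 20.5 RPKM after tagmentation and 3.47 to 24.9 RPKM after sonication. Des had 8.27 RPKM in tagmentation library 2 and 9.75 RPKM in sonication library 2, and at most 0.321 RPKM elsewhere. The sum of the 5 markers was 12.9 to 49.6 RPKM after tagmentation and 21.6 to 56.0 RPKM after sonication. Of 5 fibroblast markers in the table, 4 stayed below 1 RPKM in all libraries, and their sum was 0.137 to 9.55 RPKM after tagmentation and 0.412 to 12.1 RPKM after sonication. Of 4 blood markers 2 were in the table, summing to 0 to 1.34 RPKM after tagmentation and 0 to 2.67 RPKM after sonication. The part of other cells in the Acta2 level was not tested, and in bulk RNA fewer cells of a type and less RNA per cell cannot be told apart.

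The skeletal and cardiac actins, which are outside the 9 genes, were each abundant in 1 number only. Acta1, the skeletal muscle actin, had 39.4, 1.73 and 1.19 RPKM after tagmentation, against 84.1, 2.22 and 1.33 RPKM after sonication. Actc1, the cardiac actin, chosen for mention after its values were seen, had 0.342, 0.208 and 72.2 RPKM after tagmentation, against 0.0712, 0.392 and 51.8 RPKM after sonication. Acta1 thus stood high in both libraries of number 1, with 1187 and 3651 reads, and Actc1 in both of number 3, with 3479 and 1357 reads after tagmentation and sonication. Of 5 markers of skeletal and cardiac muscle 3 were in the table, these actins and Myh6, and they summed to 1.97 to 77.6 RPKM after tagmentation and 2.64 to 84.4 RPKM after sonication. The other actins Actg2 and Actbl2 stayed below 1 RPKM in every library.

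Destrin, the actin-depolymerizing partner of cofilin, was the one member whose tagmentation libraries all lay above its sonication libraries. Dstn had 531, 655 and 681 RPKM in tagmentation libraries 1 to 3, against 422, 349.9 and 211 RPKM in sonication libraries 1 to 3. The means were 622 ± 80.1 RPKM and 328 ± 107 RPKM (SD, n = 3 each). On the log2(RPKM + 1) scale, which all fold changes below use with tagmentation over sonication, the log2 fold change was 0.97 (SE 0.37). The difference within a number was smallest in number 1 (0.33) and largest in number 3 (1.68). Sonication library 3 was the lowest of the 6, and the 3 tagmentation libraries lay within 1.28-fold of each other.

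Cofilin 1, the main filament-severing protein outside muscle, showed no such separation. Cfl1 had 316, 445 and 734 RPKM after tagmentation, against 514, 482 and 670 RPKM after sonication. The ranges overlapped, and number 3 was highest with each method. Its log2 fold change was -0.23 (SE 0.39). Dstn was therefore above Cfl1 in tagmentation libraries 1 and 2 (1.68 and 1.47 times) and close to it in tagmentation library 3 (0.928 times), but below Cfl1 in sonication libraries 1 to 3 (0.822, 0.726 and 0.315 times). Summed, the 2 transcripts had 1120 ± 284 RPKM after tagmentation and 883 ± 52.2 RPKM after sonication (SD, n = 3 each), with overlapping ranges.

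The monomer-binding proteins followed the number more than the method. Profilin 1 had 327, 757 and 419.9 RPKM after tagmentation, against 479.6, 827 and 380.0 RPKM after sonication, with number 2 highest in both. Thymosin beta 4, the main monomer-sequestering peptide, had 891, 363 and 470.2 RPKM after tagmentation, against 774, 266 and 281 RPKM after sonication, with number 1 highest in both. Thymosin beta 10 had 121, 226 and 283 RPKM after tagmentation, against 171, 254 and 283 RPKM after sonication, with number 1 lowest and number 3 highest in both. The ranges of the methods overlapped for all 3 genes. Tmsb4x stood above Tmsb10 in 5 libraries. It was 7.35 times Tmsb10 in tagmentation library 1 and 4.53 times in sonication library 1, but 1.61 and 1.66 times in tagmentation libraries 2 and 3 and 1.05 and 0.994 times in sonication libraries 2 and 3. Log2 fold changes were -0.18 (SE 0.43) for Pfn1, 0.46 (SE 0.50) for Tmsb4x and -0.22 (SE 0.44) for Tmsb10.

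Arhgdia, a broadly expressed regulator of filament assembly, was the member whose tagmentation libraries all lay below its sonication libraries. It had 71.1, 131 and 110.1 RPKM after tagmentation, against 181, 192 and 152 RPKM after sonication. The log2 fold change was -0.78 (SE 0.43), with within-number differences of -1.34, -0.55 and -0.46 in numbers 1 to 3. The difference was widest in number 1, where the tagmentation library was the lowest of all 6. Its relative Arhgdig was lower in level, and Arhgdia was 3.10 to 3.66 times Arhgdig after tagmentation and 4.95 to 5.67 times after sonication.

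**Figure D2:**
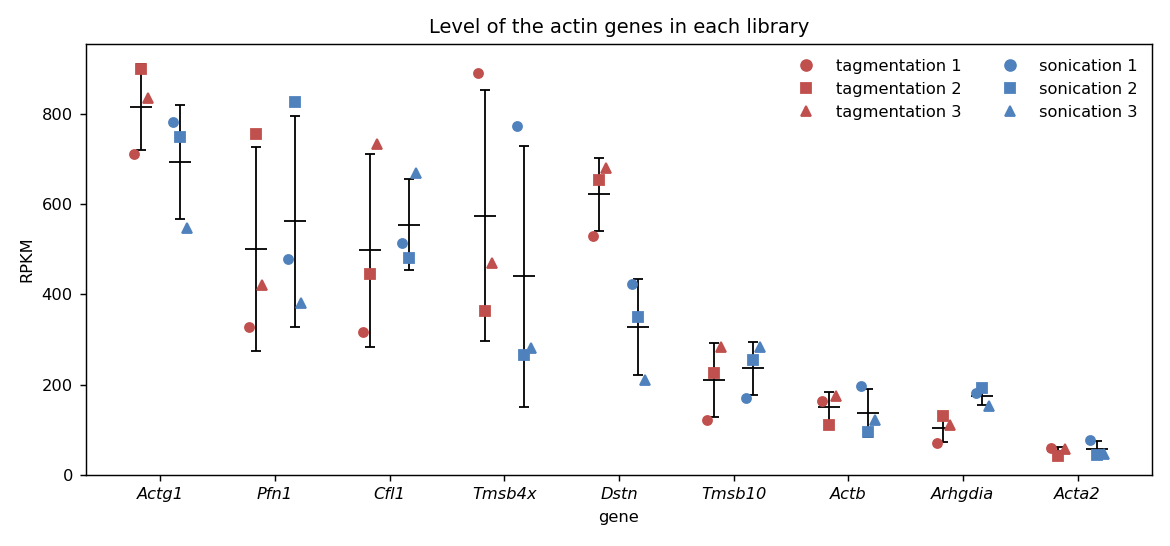
RPKM (linear axis) of the 9 genes in each library, ordered by mean level; symbols give the replicate number, colours the method, and black bars the mean ± SD of 3 libraries. The methods overlap for 7 genes, while Dstn lies higher and Arhgdia lower in all 3 tagmentation libraries.

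By mean over the 6 libraries the order of levels was Actg1, Pfn1, Cfl1, Tmsb4x, Dstn, Tmsb10, Actb, Arhgdia and Acta2, with 755 RPKM for the first and 54.5 RPKM for the last. Several neighbours in this order could not be separated. Pfn1 (532 RPKM) exceeded Cfl1 (527 RPKM) in 3 of 6 libraries, Tmsb4x (508 RPKM) exceeded Dstn (475 RPKM) in 3 of 6, and Actb (143 RPKM) exceeded Arhgdia (139.6 RPKM) in 3 of 6. Arhgdia exceeded Acta2 in 6 of 6 libraries. Actg1 was first in 3 libraries, and Tmsb4x, Pfn1 and Cfl1 were each first in 1. The sum over all 9 genes was 3529 ± 299 RPKM after tagmentation and 3184 ± 458 RPKM after sonication (SD, n = 3 each), with overlapping ranges.

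Between methods, limma's test with Benjamini-Hochberg adjustment over all 6327 genes called 0 of the 9 genes at an adjusted p under 0.05, against 0% of all tested genes. At an unadjusted p under 0.05 there were 1 of the 9 and 18 of all. With the replicate number as a block, 1 of the 9 was called, Dstn (adjusted p 0.0466), where 3.29% of all tested genes were called. Tagmentation lay wholly above sonication in 1 of the 9 genes and in 1.88% of all tested genes, and wholly below it in 1 of the 9 and in 0.522% of all. The difference had 1 direction in all 3 numbers in 4 of the 9 genes (Dstn and Tmsb4x higher, Tmsb10 and Arhgdia lower) and in 33.8% of all tested genes. For Tmsb10 the difference in number 3 was nearly 0 (-4.4e-04 on the log2 scale). The 9 genes were chosen from this same table with these values known, among them Dstn and Arhgdia, so nothing is read from these counts. The call on Dstn was lost with the block without replicate 2 or without replicate 3, with a pseudocount of 0.1 or 5, with no filter and with median-ratio scaling, while its log2 fold change stayed between 0.62 and 1.29.

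Within the numbers, all 9 genes had their lowest difference between methods in number 1 and their highest in number 3. For Actg1 the differences were -0.14, 0.26 and 0.61 in numbers 1 to 3, and for Cfl1 they were -0.70, -0.11 and 0.13. The same order held in 90.9% of the 572 genes whose mean lay from 100 up to 1000 RPKM, the level of 8 of the 9 genes, and in 54.5% of all tested genes. At that level the median difference was -0.37 in number 1, 0.12 in number 2 and 0.40 in number 3. Set beside these medians, each of the 9 genes kept to 1 side in all 3 numbers. Dstn, Tmsb4x, Actg1 and Actb stood higher, and Acta2, Pfn1, Tmsb10, Cfl1 and Arhgdia stood lower. Acta2 lies below this level, and in number 1 it was barely lower, at -0.378 against -0.370. How many other genes keep to 1 side was not counted, so nothing about the 9 genes is read from this.

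**Figure D3:**
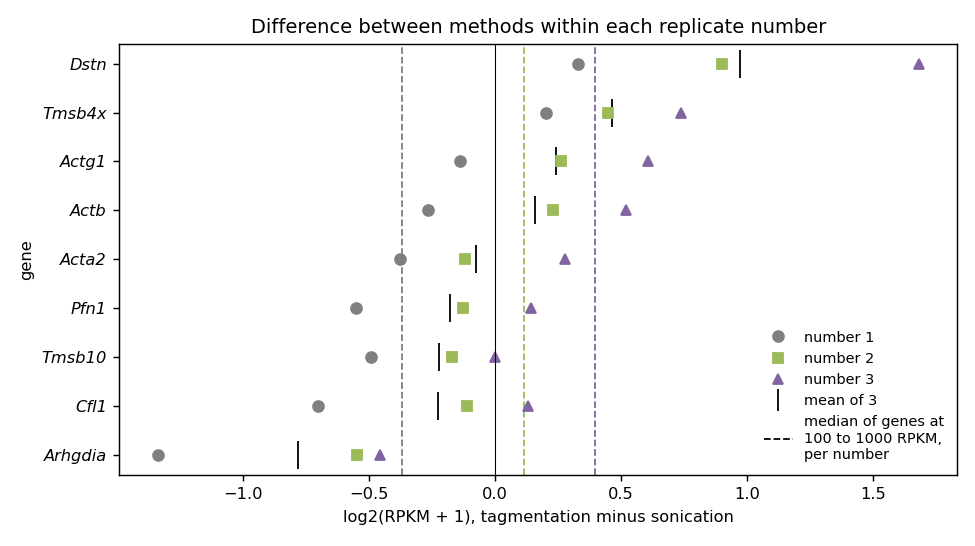
Difference in log2(RPKM + 1), tagmentation minus sonication, within replicate numbers 1 to 3 (symbols), with the mean of the 3 (black tick) and, as dashed lines, the median per number of the 572 genes at 100 to 1000 RPKM. Number 1 is leftmost and number 3 rightmost for every gene. The upper 4 genes lie right of the line of the matching number, and the lower 5 lie left of it, Acta2 barely so in number 1.

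Between numbers, 3 of the 9 genes differed past the threshold. A test of the number with the method as a term (limma's moderated F test, Benjamini-Hochberg adjusted) called 3 of the 9, Tmsb4x (adjusted p 3.57e-04), Pfn1 (0.0106) and Tmsb10 (0.0282), where 88.1% of all tested genes were called. None of the 9 differed by 4-fold or more between numbers, where 58.5% of all tested genes were called and did. At 100 to 1000 RPKM 59.4% of genes were called. With tagmentation 2 or sonication 2 left out none of the 3 was called (adjusted p 0.181 to 0.591 with limma), without tagmentation 3 Tmsb10 was not (0.186), and without sonication 3 Pfn1 (0.0828) and Tmsb10 (0.0916) were not. Other members were gained. Without tagmentation 1 Actb (0.00429), Acta2 (0.0288) and Cfl1 (0.0173) were also called, and without sonication 1 Cfl1 (0.00218) and Arhgdia (0.0152). Averaged over the methods, the widest was Tmsb4x, by 1.42 on the log2 scale (2.67-fold), and the narrowest were Actg1 with 0.28 (1.21-fold) and Dstn with 0.34 (1.26-fold). These narrow values rest on averaging, since number 3 was the highest for Dstn after tagmentation and the lowest after sonication, where its libraries spread 2.00-fold. With 1 library left out the range was 0.22 to 0.87 for Dstn (lowest without sonication 3, highest without tagmentation 3, and 0.80 without tagmentation 1) and 0.14 to 0.55 for Actg1 (lowest without sonication 3, highest without tagmentation 3, and 0.43 without tagmentation 1). The median of the 572 genes at that level was 1.03. Of them, 532 spread wider than Actg1, 519 than Dstn, 475 than Arhgdia, 363 than Actb and 361 than Cfl1. Fewer spread wider than Tmsb10 (312), Pfn1 (299) and Tmsb4x (180), and Tmsb4x lay above the median. Acta2 spread by 0.65, and with 1 library left out by 0.42 (without sonication 1) to 0.88 (without tagmentation 1). The median of the 3304 genes at 10 to 100 RPKM was 2.51, and 3103 of them spread wider than Acta2 did with all libraries. Since the genes were chosen from these values, this is a description only.

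**Figure D4:**
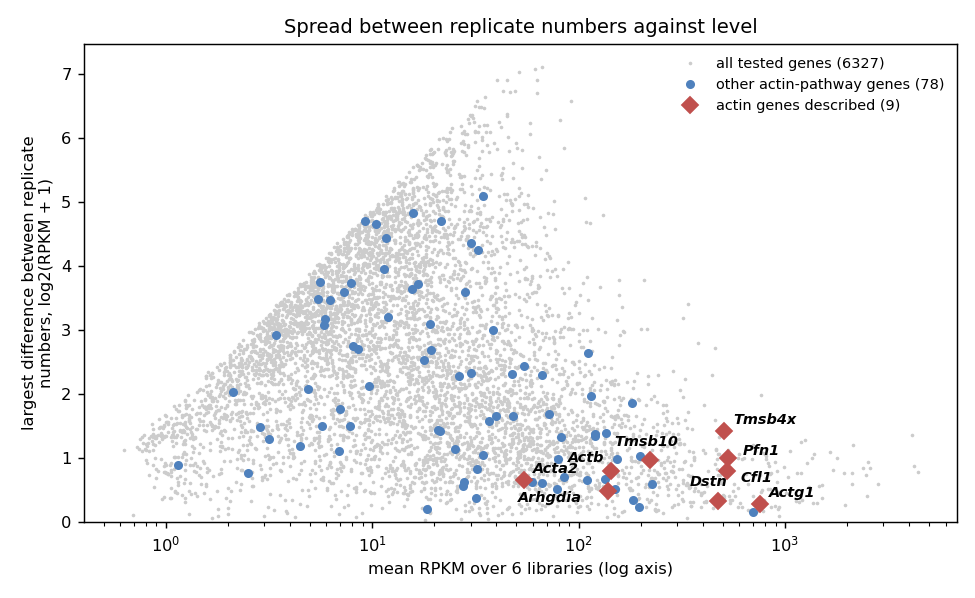
Largest difference between replicate numbers (log2 scale, method as a term) against mean RPKM over 6 libraries (log axis) for all tested genes (grey), 78 other actin-pathway genes (blue) and the 9 genes (red diamonds). The 9 genes lie between 0.28 and 1.42, below most genes of the table. Tmsb4x lies above the median of genes at 100 to 1000 RPKM, which is 1.03.

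The members did not move as 1 group across the libraries. Over the 6 libraries, which share their numbers in pairs, Pearson's r of log2(RPKM + 1) was 0.91 between Actb and Acta2, 0.89 between Actg1 and Dstn and 0.85 between Cfl1 and Tmsb10, but -0.85 between Tmsb4x and Tmsb10 and 0.14 between Actb and Actg1. These describe 3 pairs of libraries and are given with no test. Among genes with a mean of at least 10 RPKM, those most like Actb were Tpr (r of 0.979), Ankfy1 (0.978) and Ipo5 (0.977). Those most like Dstn were Sfpq (0.996), Hdgf (0.996) and Rab9 (0.995). Those most like Arhgdia were Gar1 (0.996), Ube2v1 (0.977) and Gm5523 (0.976). Of 3913 genes, 20, 25 and 12 had an r above 0.95 with Actb, Dstn and Arhgdia, in that order.

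Other genes of the actin machinery showed no common shift between methods. Of 131 listed genes, 121 were in the table and 78 were tested. Of these, 40 had a log2 fold change above 0 and 38 below 0, with a median of 0.027, and the median of all tested genes was 0.028. Limma called 0 of the 78 without the block, with 0 at an unadjusted p under 0.05. With the block it called 3 higher and 0 lower, 3.85% of the 78, against 1.58% of all tested genes called higher and 1.71% called lower. The methods did not overlap in 2 of the 78 (2.56%), close to the 2.40% of all tested genes.

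The 3 genes called with the block came from 3 branches of the machinery. Cfl2, the cofilin of muscle and a paralogue of Dstn, had 36.02, 27.5 and 73.8 RPKM after tagmentation, against 22.7, 15.1 and 18.3 RPKM after sonication. Its log2 fold change with the block was 1.14 (SE 0.30, adjusted p 0.0133), and its methods did not overlap. Actr2, which encodes the Arp2 subunit of the branch-forming Arp2/3 complex, had 18.2, 50.2 and 19.4 RPKM after tagmentation, against 11.2, 22 and 7.08 RPKM after sonication, with a log2 fold change of 1.05 (SE 0.29, adjusted p 0.0217). Tmod3, a tropomodulin that caps the slow-growing filament end, had 0.305, 7.02 and 28.7 RPKM after tagmentation, against 0.138, 3.19 and 7.92 RPKM after sonication, with a log2 fold change of 0.96 (SE 0.28, adjusted p 0.0344). All 3 were higher after tagmentation in 3 of 3 numbers, each with its largest difference in number 3. In that number the median difference was 0.20 over all tested genes. It was 0.30 over genes with a mean of 10 to 100 RPKM, the level of Cfl2 and Actr2. In the fit without the block, leaving out tagmentation 3 alone gave Tmod3 a log2 fold change of -0.11. With the block and without replicate 3, the log2 fold change of Tmod3 was 0.57. Without replicate 2 or without replicate 3 the block fit called 0 of the 78, and without replicate 1 it called 22.

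Tropomyosin 1, which lines filaments and shields them from severing, was the most abundant gene of the list. Tpm1 had 651, 881 and 1028 RPKM after tagmentation, against 625, 579 and 457 RPKM after sonication. These ranges did not overlap, but Tpm1 was not called (log2 fold change 0.61, SE 0.30 and adjusted p 0.281, all with the block in limma's fit). The capping protein subunit Capzb had 153 to 303 RPKM after tagmentation and 186 to 239 RPKM after sonication, with overlapping ranges. So did Arpc4 of the Arp2/3 complex, with 69.5 to 218 RPKM after tagmentation and 93.5 to 208 RPKM after sonication.

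By branch, the median log2 fold change was 0.32 over 8 genes of the Arp2/3 complex and 0.21 over 8 nucleation promoting factors, led in level by Brk1 with 58.7 to 202 RPKM after tagmentation and 71.2 to 136 RPKM after sonication. It was 0.55 over 3 formins and Spire genes, led by Spire1. It was -0.29 over 12 genes of monomer binding and turnover, led by Coro1b, and 0.12 over 7 capping and severing genes. It was -0.065 over 24 side-binding and bundling genes, and -0.27 over 5 non-muscle myosin genes, led by the light chain Myl12a. Of 3 tested kinases and phosphatases of cofilin, led by the cofilin phosphatase Pdxp, the median was -0.014. Srf, the serum response factor, had 2.36 to 10.9 RPKM after tagmentation and 3.44 to 9.15 RPKM after sonication, and its log2 fold change was -0.059. None of these branches had more than 1 gene called with the block.

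**Figure D5:**
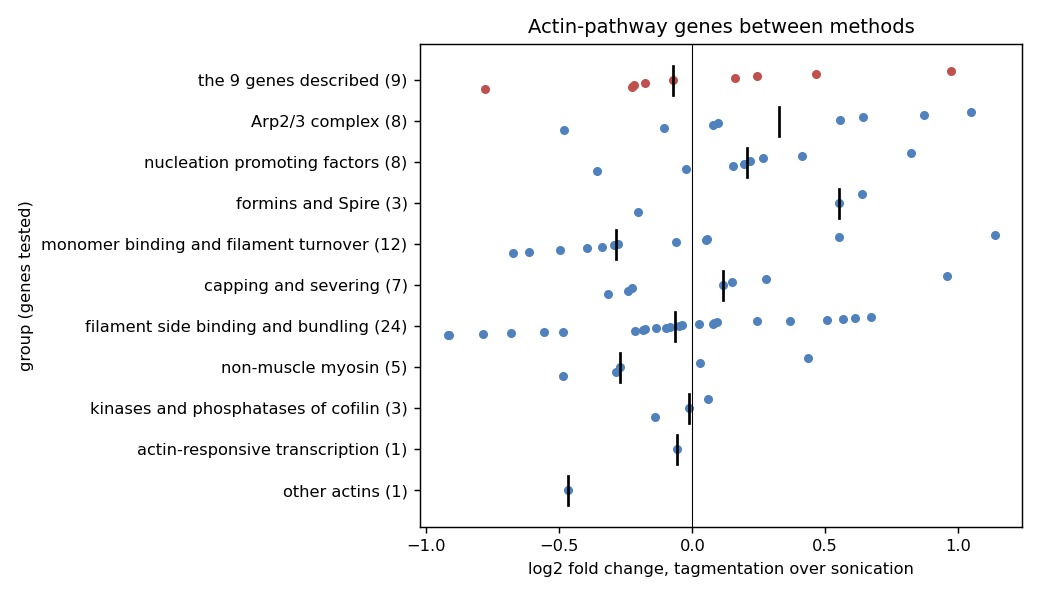
Log2 fold change, tagmentation over sonication, of each tested gene (points) in the 9 genes described (red) and in 10 branches of the actin machinery (blue), with the median of each group as a black line. Points lie on both sides of 0 in the larger groups, and the 78 other genes tested, 6 of them in a branch not drawn, have a median of 0.027.

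The median spread between numbers was 0.79 on the log2 scale for the 9 genes, 1.73 for the 78 other genes of the machinery and 2.38 for all tested genes. The number test called 61 of the 78 (78.2%, against 88.1% of all tested genes), and 36 of them (46.2%) differed by 4-fold or more, against 58.5% of all tested genes. Levels differ between these sets and were not matched, so no difference between them is drawn.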

How the data were processed

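The authors deposited RPKM values, 1 column per library, together with alignment totals, per the file headers. Genome build mm9, CASAVA 1.7.0 and Partek are named in the submitters' processing notes, with no role for each. Aligner, gene models, read length and strand setting: not given in the sources used here. Per the labels, tagmentation used 100 ng of cDNA at 55 °C for 5 min and 13 PCR cycles. Values were tested as log2(RPKM + 1), a scale that understates the change of low genes, in genes that reached 1 RPKM in 3 or more libraries, by two-sided tests of limma 3.58.1 in R 4.3.3 (lmFit, eBayes with trend). P-values were adjusted by Benjamini and Hochberg's method over all tested genes. The method was the only term, and the replicate number as a block was an alternative. The labels do not say that same-numbered libraries share a cDNA. That they pair rests on the correlations of their deviations (0.934 to 0.969). The block fit borrowed most of each gene's spread from other genes (prior degrees of freedom 209.7). A gene not called without the block is not thereby shown to be alike between methods.

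The 9 genes, the other gene lists and the tests were chosen with earlier results of these data known. Named genes were the members, the most abundant tested gene of each branch, list genes called in a fit or, at a mean of 10 RPKM or more, without overlap between methods, and for 3 members the 3 genes of most similar pattern. Listed symbols absent from the table were looked up among RefSeq synonyms (Brk1 as 6720456B07Rik, Myl12a as 2900073G15Rik). Transcript and promoter sequences are of GRCm38, while the deposited values are of mm9, so no coordinate was joined to a value. The median of 1 branch of the pathway list is not reported here.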

Additional observations from a re-analysis of the deposited data

How the results depend on the processing

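Without the block, limma called 0 of the 78 actin-pathway genes and 0 of all tested genes under each of the alternatives tried, which were 2 pseudocounts, 2 filters, 2 scalings and each library left out in turn. These fits leave the differences between numbers in the error. With the main settings 18 of all tested genes had an unadjusted p under 0.05 in limma's test. Calls were thus unlikely under any of these settings, and nothing about stability is read from the 0. With the replicate block, the counts were 208 of all tested genes and 3 of the 78. The block fit called 1051 genes in all and 22 of the 78 without replicate 1, 10 and 0 without replicate 2, and 19 and 0 without replicate 3. The following block fits were chosen after seeing the data. They called 8 genes in all with a pseudocount of 0.1, 168 with a pseudocount of 5, 168 with a mean of at least 10 RPKM, 104 with median-ratio scaling and 476 with quantile normalization. Of the 78 they called 0 with a pseudocount of 0.1, where Cfl2, Actr2 and Tmod3 were all lost (adjusted p 0.251 to 0.282), 3 with a pseudocount of 5, 3 with a mean of at least 10 RPKM, 2 with median-ratio scaling and 8 with quantile normalization. With no filter the block fit called 0 in all, with limma's adjusted p at 0.698 for these 3 genes. The cause was not tested. The number test called 5577 genes and 61 of the 78, and with a mean of at least 10 RPKM 3411 and 40, since fewer genes were tested. It called 4342 to 5867 and 45 to 69 without each library.

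Over 22 alternatives, Actg1, Dstn, Tmsb4x and Arhgdia kept the direction of their difference between methods. Their log2 fold changes were 0.063 to 0.44, 0.62 to 1.29, 0.095 to 0.96 and -0.97 to -0.50, in that order. Not all of these alternatives could change a direction. Another filter, or the block with all libraries kept, leaves a gene's log2 fold change as it was, so those fits repeat a value. Only other pseudocounts, other scalings and left-out libraries or replicates could move it. The values of Actb, Acta2, Cfl1, Pfn1 and Tmsb10 crossed 0 in 1 to 3 alternatives, always with a library or a replicate left out. With the block, Tmsb4x was called without replicate 1 and with quantile normalization, and Arhgdia with quantile normalization. With no filter the number call on Pfn1 was lost (adjusted p 0.0652, limma), and it changed with the libraries left out as given above. Actb and Cfl1 were also called between numbers with median-ratio scaling, Actb, Acta2 and Cfl1 with quantile normalization and without tagmentation replicate 1, and Cfl1 and Arhgdia without sonication replicate 1. Where a library was left out, the lone library of a number was assumed to vary like the others. Actc1, Actg2 and Actbl2 were too low in most libraries to be tested.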
